A study of Drosophila melanogaster with 3 samples.

Results

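Candidate binding regions of a tagged heat shock factor were taken from the promoters of single genes. They were described by where their summits lay around the transcription start site (TSS). The authors' pooled list holds 30000 candidate regions on the dm6 build, peaks and background together. Each has a summit, its highest point, and a signal score. A region was a member when its summit lay within 500 bp of TSSs of exactly 1 protein-coding gene and of no other annotated gene of any kind. That held for 6318 regions, 21.1% of the list. Another 2689 regions had TSSs of several genes within that distance, 814 had TSSs of noncoding genes only, and 20179 had none.

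The series is a chromatin immunoprecipitation and sequencing experiment (ChIP-seq) on whole Drosophila melanogaster embryos, 0 to 24 h old, males and females pooled. The animals came from 1 transgenic line with a stable insertion that makes Hsf carrying GFP at its C-terminal end, and the precipitation used an antibody against GFP. The 3 samples are biological replicates of this 1 group; the labels name no heat treatment and no second genotype, so comparisons were made among regions. Chromatin from all cell types of the embryo was mixed, so a summit cannot be assigned to a cell type, and whether the endogenous Hsf gene was still present is not given in the labels.

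A promoter is the stretch around a TSS where RNA polymerase II and its general factors assemble, and sequence-specific factors usually bind just upstream of it. Hsf is the single heat shock factor of the fly. On heat stress it forms trimers and binds heat shock elements, runs of GAA units in alternating orientation, upstream of the heat shock genes, and it also has roles in unstressed development. In fly promoters the TATA box, the initiator at the TSS, and sites for the factors DREF, M1BP and GAGA factor are common elements.

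Signed distances are given in the direction of transcription from the nearest TSS of the member's gene, negative for upstream and positive for downstream, with the TSS base at 0. The optimal list is the authors' set of 5756 peaks that passed IDR, a test of whether regions rank alike in different replicates. No pooled region outside it has a higher signal than any peak inside it, so being in the optimal list and having a high signal are the same measurement here. An "optimal member" below is a member that is itself such a peak. An "overlapping member" shares at least 1 bp with such a peak and may be its neighbour. Signals are the authors' own scores, on a separate scale in each list, and the read depth behind them is unknown.

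The sequences below show the DNA at 7 of the 10 strongest members, 40 bp on each side of the summit, or 14 bp for PNPase. Its summit lies in transcribed leader, and the stretch was cut short to limit such bases. Of the 29 bases printed for PNPase, 19 lie in annotated untranslated sequence. The stretches at px, CG1888 and GstE13, the other members of the 10, are not shown. The printed stretches are read from the dm6 genome on the strand of the gene. Capitals mark any match to the heat shock element, the DREF, M1BP, GAGA and E-box sites, the TATA box, or the hexamer described further on. Of these 7 stretches, 1 holds a match, a TATA box letter string near CG31145.
CG14100 (3L:19590579-19590659, reverse strand, -135 to -55 bp from the TSS): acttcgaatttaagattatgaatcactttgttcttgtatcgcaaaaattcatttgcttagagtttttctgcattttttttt
Ugalt (X:2703853-2703933, reverse strand, -81 to -1 bp from the TSS): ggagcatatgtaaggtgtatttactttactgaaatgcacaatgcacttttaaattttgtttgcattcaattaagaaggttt
ph-p (X:2137287-2137367, reverse strand, -512 to -432 bp from the TSS): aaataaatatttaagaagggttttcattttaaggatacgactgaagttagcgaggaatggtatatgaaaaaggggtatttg
PNPase (3R:31404643-31404671, reverse strand, 69 to 97 bp from the TSS): aacgtacagggcttttattgtaagatttt
larp (3R:28326558-28326638, reverse strand, -374 to -294 bp from the TSS): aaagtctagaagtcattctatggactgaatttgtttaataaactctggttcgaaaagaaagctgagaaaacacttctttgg
CG18549 (3R:12449134-12449214, forward strand, -162 to -82 bp from the TSS): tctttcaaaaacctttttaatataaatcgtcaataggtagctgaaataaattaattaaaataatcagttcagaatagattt
CG31145 (3R:23669803-23669883, reverse strand, -224 to -144 bp from the TSS): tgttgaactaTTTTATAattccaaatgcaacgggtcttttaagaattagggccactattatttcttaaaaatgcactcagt

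The next stretches show, for 4 of the searched sites, an overlapping member that holds it within 100 bp of its summit. The site is in capitals. Each is the strongest such member outside the chromosome arm that carries px, CG1888 and GstE13. Members on that arm were left out of the choice, so a stronger one there is possible. The stretches make plain what a match looks like. The first is a heat shock element, 3 GAA units in alternating orientation joined by 2 free bases, of which 1 fixed base may differ; then follow a DREF site, an M1BP site and a GAGA site.
CG18549 (3R:12449107-12449135, forward strand, -189 to -161 bp from the TSS): acataattGTCTGGAATTTTCatagtttc
CG11151 (X:13739454-13739482, forward strand, -290 to -262 bp from the TSS): aaccaaatgaTATCGATAcagttatttac
Mer (X:19693493-19693521, reverse strand, -21 to 7 bp from the TSS): tctaacggctGGTCACACTgtctatgttt
CG11857 (3R:25258913-25258941, forward strand, 15 to 43 bp from the TSS): gccctgccactGAGAGAGcataatgacgt

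The last set carries the sequence pattern reported near the end. In these 4 optimal members the hexamer CACTGT stands on both sides of the summit and points away from it, so that it reads ACAGTG on the left and CACTGT on the right. Capitals mark the hexamer in either orientation, and the summit lies between.
larp (3R:28326506-28326705, reverse strand, -441 to -242 bp from the TSS): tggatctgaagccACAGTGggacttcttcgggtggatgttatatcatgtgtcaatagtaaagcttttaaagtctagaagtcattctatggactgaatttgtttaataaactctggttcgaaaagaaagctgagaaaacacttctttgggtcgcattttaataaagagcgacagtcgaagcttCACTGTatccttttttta
Rtnl1 (2L:4997563-4997764, reverse strand, -383 to -182 bp from the TSS): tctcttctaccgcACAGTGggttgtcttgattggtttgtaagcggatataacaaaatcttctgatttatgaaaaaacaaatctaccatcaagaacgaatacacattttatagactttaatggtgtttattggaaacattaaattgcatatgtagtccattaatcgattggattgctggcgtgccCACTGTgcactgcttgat
CG1635 (3R:31588435-31588650, forward strand, -238 to -23 bp from the TSS): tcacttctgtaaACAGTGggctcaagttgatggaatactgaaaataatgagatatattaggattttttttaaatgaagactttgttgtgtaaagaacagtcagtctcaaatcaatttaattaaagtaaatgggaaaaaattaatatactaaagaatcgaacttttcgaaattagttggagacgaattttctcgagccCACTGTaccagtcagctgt
PAN3 (3L:3081320-3081531, forward strand, -248 to -37 bp from the TSS): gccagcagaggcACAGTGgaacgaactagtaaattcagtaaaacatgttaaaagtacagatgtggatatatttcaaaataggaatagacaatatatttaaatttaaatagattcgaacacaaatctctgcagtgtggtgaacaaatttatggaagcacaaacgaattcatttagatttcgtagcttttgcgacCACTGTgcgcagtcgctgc

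The strongest member, which was also the strongest region of the whole list, lay 95 bp upstream of CG14100 between genes (3L:19590395-19590834). Its pooled signal was 3523 and its ranks 2, 1 and 1 in replicates 1, 2 and 3, where its summit stood at -97, -95 and -111 bp. Ugalt, which encodes a UDP-galactose transporter of the Golgi, had its summit at -41 bp with a signal of 2414 (X:2703686-2704108). The Ugalt member ranked 6, 6 and 3 in the replicates. In both members the 3 replicate summits fell on the upstream side.

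Other strong members stood on either side of the TSS. The summit at px, a wing vein gene, lay in an intron at -217 bp; its signal was 2340 and its ranks were 4, 12 and 12. At ph-p, which encodes a Polycomb group protein, the summit lay at -472 bp in an intron, with a signal of 2117 and ranks of 14, 7 and 11. PNPase, the gene of a mitochondrial RNA-degrading enzyme, was the strongest member with a downstream summit, at 83 bp in the 5′ UTR with a signal of 2000. That summit stood between 2 annotated TSSs of PNPase, downstream of one and upstream of the other.

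The remaining 5 of the 10 strongest members were at CG1888 (-234 bp), GstE13 (65 bp), larp (-334 bp), CG18549 (-122 bp) and CG31145 (-184 bp). GstE13 encodes a glutathione S-transferase, and its summit too lay between TSSs of the gene. larp encodes a La-related RNA-binding protein, and its summit stood at -334, -334 and -340 bp in replicates 1, 2 and 3. Across the 10 members the SD of the summit position over the replicates was between 3.00 bp (PNPase) and 14.6 bp (CG31145). Every one of the 10 ranked 34 or better in every replicate. The values of all the members named by position class are drawn in the plot of the strongest members.

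**Figure D1:**
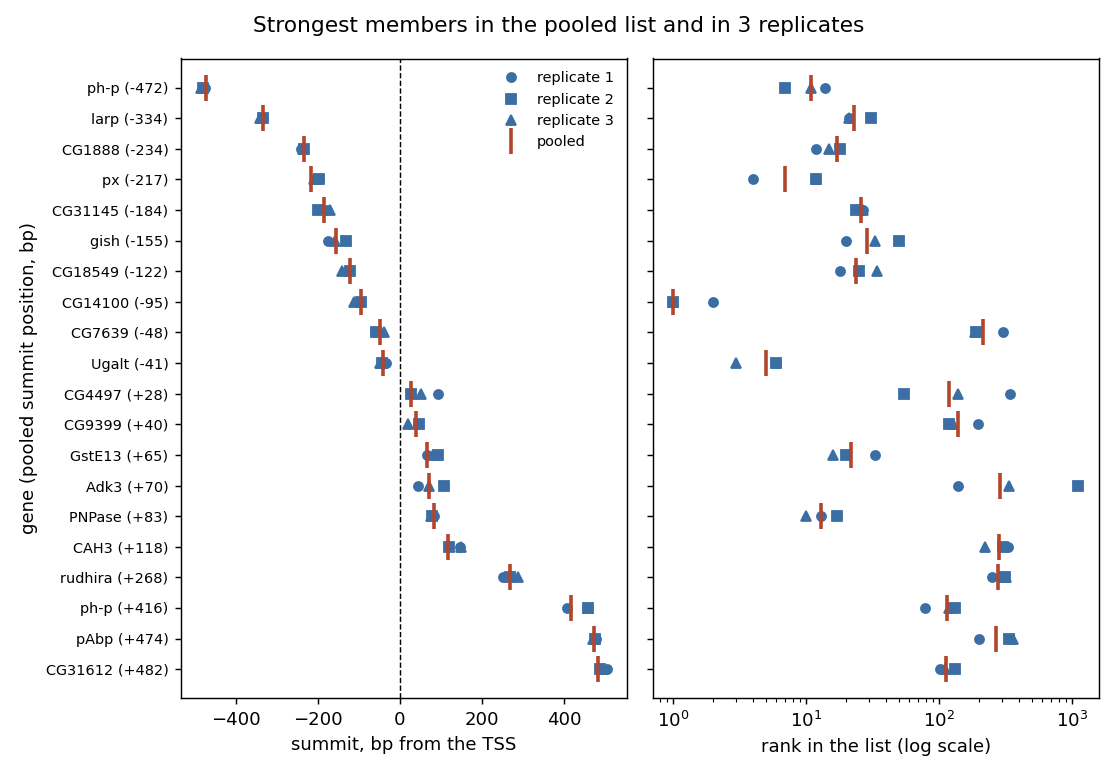
Summit position from the TSS in bp (left) and rank by signal on a log scale (right) of the 10 strongest members and the 4 strongest of each position class, in replicates 1 to 3 (blue symbols) and in the pooled list (red bars). The 10 strongest members rank 34 or better in each replicate, while the strongest members downstream of the TSS other than PNPase and GstE13 rank lower, down to 1117 for Adk3 in replicate 2.

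Members made up a larger part of the strong regions than of the list. Of the 6318 members, 1889 overlapped an optimal peak, 29.9% (Wilson 95% interval 28.8 to 31.0), against 22.6% of all pooled regions. Counting only the region's own entry, 1598 members were optimal peaks, 25.3% (24.2 to 26.4), against 17.6% of the 23682 other regions and 19.2% of all pooled regions. Of the 100 strongest regions 30 were members. Intervals of shares cover counting error over regions only.

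The replicates gave the same order. Each replicate list was ranked by its own signal and its 5756 strongest regions were counted, which is 19.2% of the list of replicate 1, 20.4% of that of replicate 2 and 19.2% of that of replicate 3. Single-gene promoter regions reached this top list in 24.6%, 31.8% and 28.2% of cases, and all other regions in 17.6%, 18.1% and 17.0%. The difference was 10.7 ± 3.39 percentage points (SD, n = 3) and positive in 3 of 3 replicates. In an exact sign-flip permutation test over the replicates, two-sided, p was 0.25, the smallest value that 3 replicates allow, so no comparison here can reach 0.05.

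Promoter regions shared by several genes were stronger still. Single-gene members reached the top list in 28.2% ± 3.63 of cases and multi-gene regions in 50.8% ± 7.40 (SD, n = 3 each), a difference of -22.6 ± 4.06 percentage points with the same sign in 3 of 3 replicates (exact permutation p = 0.25). In the pooled list 25.3% of the members and 47.8% of the multi-gene regions were optimal peaks. The members' share was 26.1% (23.7 to 28.7) where the nearest TSS of another gene was 501 to 1000 bp away and 24.6% (22.5 to 26.9) where it was over 5000 bp away, with overlapping intervals.

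Summits clustered just upstream of the TSS, and the strong ones did so more. The median position of the 6318 members was -50 bp, with quartiles at -200 and 89 bp, and 62.3% lay upstream. The replicate lists, filtered by the same rule, gave medians of -47, -73 and -38 bp. Among pooled members found in both remaining replicates, the median was -80 bp without replicate 1 and -82 bp without replicate 3, which is a stricter set by construction. The optimal members had a median of -121 bp and 84.9% of them lay upstream, against -16 bp and 53.8% for the 4429 members that overlapped no optimal peak. The 100 strongest members had a median of -177.5 bp, and 92% were upstream. In the replicates, members in the top list had medians of -108, -133 and -109 bp.

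Counts per position were set against eligible sequence, the bases where a summit would have met the rule, 12801 kb in all. Overlapping members reached 0.426 per kb between -100 and -51 bp and 0.364 per kb between -50 and -1 bp. From 0 to 49 bp downstream the value was 0.135 per kb, and from 250 to 299 bp it was 0.0182 per kb. The step at the TSS was present in each replicate. Members of the top list reached 0.345, 0.268 and 0.355 per kb between -50 and -1 bp, and 0.194, 0.0669 and 0.137 per kb from 0 to 49 bp, in replicates 1, 2 and 3. Overlapping members reached 0.248 per kb within 50 bp of the TSS, 0.191 per kb over 200 bp upstream and 0.0254 per kb over 200 bp downstream. The low density was thus mainly on the downstream side. Members of the top list reached 0.268, 0.165 and 0.244 per kb within 50 bp, in replicates 1, 2 and 3. Over 200 bp upstream they reached 0.150, 0.158 and 0.156 per kb, close to the core value in replicate 2. With both flanks beyond 200 bp merged, the difference for overlapping members was 0.151 per kb. That difference was 0.0963 per kb without replicate 1 and 0.0944 per kb without replicate 3, where a member had to match the top lists of both remaining replicates.

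**Figure D2:**
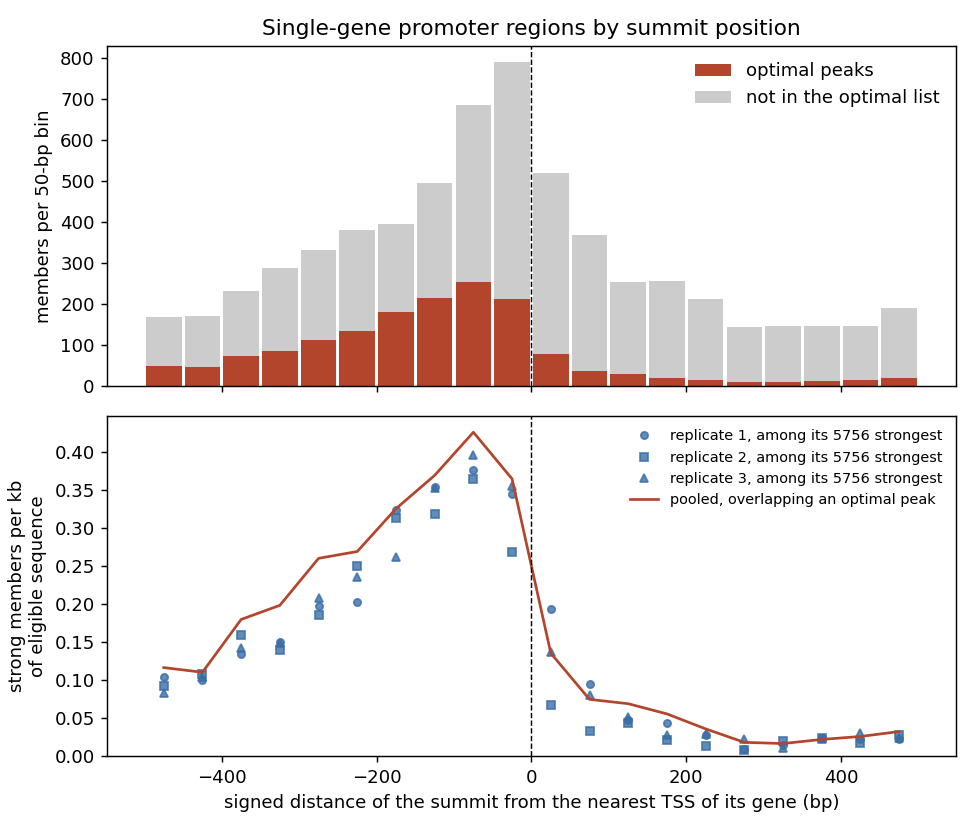
Upper panel, number of members in each 50-bp bin of summit position, split into optimal peaks (red) and others (grey). Lower panel, members that overlap an optimal peak (line) and members among the 5756 strongest regions of each replicate (symbols), per kb of eligible sequence; the dashed line is the TSS and a summit at exactly 500 bp is not drawn. The pooled density is highest, 0.426 per kb, between -100 and -51 bp and is 0.135 per kb just after the TSS.

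Upstream members were more often strong than downstream members in every replicate. Upstream members reached the top list in 31.9%, 42.1% and 39.7% of cases, and downstream members in 13.0%, 12.1% and 12.3%. The difference was 25.4 ± 5.84 percentage points (SD, n = 3; exact permutation p = 0.25), positive in 3 of 3 replicates. In the pooled list 1357 of 3935 upstream members were optimal peaks, 34.5%, and 241 of 2383 downstream members, 10.1%. Downstream members thus lay below the 19.2% of all regions. Members with a single TSS in the window gave 33.7% upstream and 8.33% downstream. Their gene can have another TSS outside the window, so an upstream summit can still lie inside the gene. The ph-p summit at -472 bp, in an intron, is such a case.

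By position class, the share of optimal peaks was highest near upstream, from -200 to -51 bp, at 41.1% (38.7 to 43.6; 648 of 1575 members). Far upstream, over 200 and up to 500 bp before the TSS, it was 31.6% (29.3 to 33.9; 496 of 1570). In the core, within 50 bp of the TSS, it was 22.1% (19.9 to 24.4; 291 of 1318). It was 9.32% (7.56 to 11.4) near downstream, from 51 to 200 bp, and 8.32% (6.75 to 10.2) far downstream, over 200 and up to 500 bp after it. Replicate 1 gave the lowest share of the 3 replicates in the classes far upstream, near upstream, core and near downstream. The order of the 5 classes was the same in all 3 replicates.

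**Figure D3:**
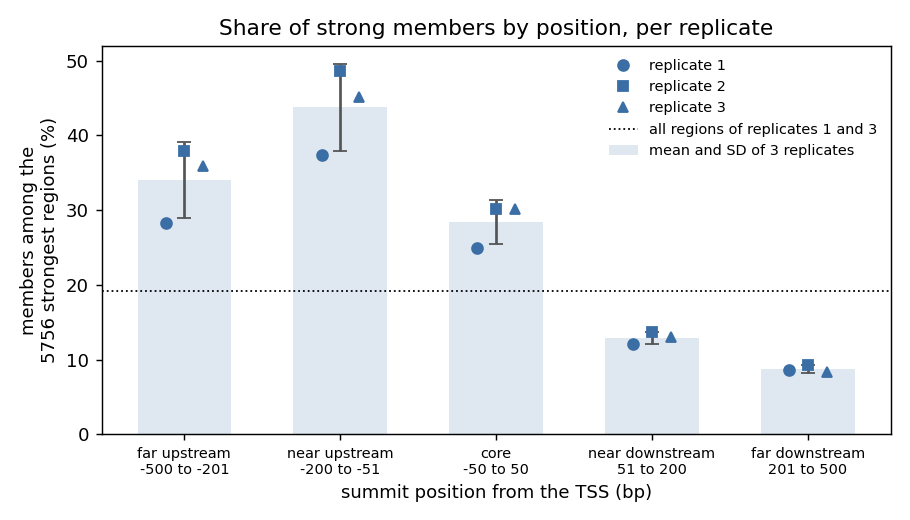
Percent of members in each position class that were among the 5756 strongest regions of their replicate; symbols are replicates 1 to 3, bars and whiskers their mean and SD. Near upstream members average 43.7% and far downstream members 8.75%; the dotted line marks the 19.2% of all regions in replicates 1 and 3.

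Within genes the strongest upstream member more often had the higher signal. In 486 genes with a member at -51 bp or farther upstream and another at 51 bp or farther downstream, the strongest upstream member had the higher signal in 335, 68.9%. The replicate lists gave 64.9%, 75.1% and 69.4%, on 598, 301 and 481 such genes. Regions of 1 gene share their surroundings and can overlap, so these genes are counted and not treated as replicates. The number of members per side was not matched. Among all members 3935 lay upstream and 2383 downstream, and a side with more members is more likely to hold the highest signal. The side was taken from the nearest TSS, so in a gene with several TSSs the compared members can lie at different promoters.

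The annotated place of the summit went along with its strength. Summits in coding sequence were optimal peaks in 8 of 618 members, 1.29% (0.657 to 2.53). The share was 14.9% (13.2 to 16.8) in the 5′ UTR, 29.4% (27.3 to 31.7) in introns and 35.6% (33.7 to 37.6) between genes. Far downstream of the TSS, 17.2% of the summits in introns but 1.55% of those in coding sequence were optimal peaks. Arms X, 2L, 2R, 3L and 3R ranged from 24.6% to 26.0%, and on the short arm 4 it was 18.6% (10.7 to 30.4; 11 of 59 members).

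The strongest members of the core and downstream classes show where the exceptions lay. In the core, Ugalt was followed by CG4497 (28 bp, signal 871), CG9399 (40 bp, 799.6) and CG7639 (-48 bp, 676). Near downstream, PNPase and GstE13 were followed by CAH3, a carbonic anhydrase gene (118 bp, 593), and Adk3, an adenylate kinase gene (70 bp, 589). The summits at CG4497, CG9399, PNPase, GstE13 and CAH3 all lay between annotated TSSs of their gene, as did 454 members in all, 7.19%. The Adk3 member ranked 139, 1117 and 334 in the replicates, a wide spread.

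Far downstream, the 4 strongest were at CG31612 (482 bp, signal 891), ph-p (416 bp, 889), pAbp (474 bp, 604) and rudhira (268 bp, 596). pAbp encodes the poly(A)-binding protein. The ph-p member was another for this gene beside the one at -472 bp, and it ranked 79, 132 and 119. The pAbp summit stood at 479, 476 and 472 bp in replicates 1, 2 and 3. In all 4, every replicate summit was at least 252 bp downstream.

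Optimal members were placed alike by the replicates. The optimal list was itself chosen by agreement between these replicates, so a closer match than in the other members is partly built in. Of the 1598 optimal members, 1562 overlapped a region in all 3 replicate lists, and the median SD of the matched summit positions was 24.6 bp. The matched summits fell on the same side of the TSS in 91.1% of these. Of the 4429 members that overlapped no optimal peak, 1526 were matched in all 3 lists, with a median SD of 75.6 bp and the same side in 69.7%. In each replicate the overlapping region with the nearest summit was taken, so neighbouring members can share a match. Across matched members, Spearman's rho of the signal was 0.689 between replicates 1 and 2 (n = 3790), 0.665 between 1 and 3 (n = 4506) and 0.736 between 2 and 3 (n = 3624), as a description.

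The members at the edge of the optimal list were weak in some replicates. Just inside were Toll-7 (-51 bp, signal 97.07), a Toll-family receptor gene, and unk (-7 bp, 96.99). They ranked 4677, 11953 and 3786, and 5176, 8683 and 4890. Just outside were Men, the malic enzyme gene (-322 bp, 96.89), and CG8665 (just over 200 bp upstream, 96.83). The ranks were 3545, 23695 and 16145 for Men, and 5529, 8672 and 6621 for CG8665. Each of these 4 members was outside the 5756 strongest regions in at least 1 replicate.

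Of 13945 protein-coding genes on the 6 arms, 13377 had sequence that met the rule, 4492 had a member and 1425 had an optimal member. A single member was found in 3177 genes, 2 in 994 and 3 or more in 321. Svil, a gene of an actin-binding protein, had the most, 11 members at several TSSs, of which 4 were optimal peaks at -221, -153, -300 and -326 bp. Rtnl1, which encodes an endoplasmic reticulum shaping reticulon, had 10. Its 6 optimal peaks lay at -275, -226, -129, -346, -312 and -115 bp, and the strongest had a signal of 1235 and ranks of 54, 48 and 63. SNF4Agamma, the gene of a regulatory subunit of AMP-activated protein kinase, had 9 members with 4 optimal peaks at -308, -246, -151 and -75 bp. In these 3 genes all 14 optimal members lay upstream of a TSS, most of them in introns. The Rtnl1 regions with summits at -129 and -346 bp overlap each other.

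Gene groups are given by their counts and positions. The share is of genes with a member that had an optimal member, and for all 4492 genes it was 31.7%. Among cytosolic ribosomal protein genes it was 32 of 41, with a median summit position of -32 bp over 57 members. RpL23A, RpL24 and RpL26, all genes of the large subunit, had the strongest members, at -97, -24 and 22 bp, the last between annotated TSSs of RpL26. The RpL23A member had a signal of 649, ranks of 264, 320 and 165, and replicate summits at -99, -97 and -96 bp. Of 68 mitochondrial ribosomal protein genes with eligible sequence 11 had a member, against 33.6% of all such genes, and mRpL4 (-113 bp) and mRpL10 (-66 bp) were the 2 with an optimal peak.

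Heat shock and chaperone genes had an optimal member in 9 of 16 genes, with a median position of -117.5 bp over 26 members. Hsp83, the fly Hsp90 gene, had a signal of 1194 at -110 bp, in the 5′ UTR between 2 annotated TSSs of the gene. Its ranks of 19, 397 and 56 differed by replicate, and its summits stood at -95, -133 and -111 bp. At mrj, which encodes a J-domain cochaperone, the summit lay at -302 bp with ranks of 78, 96 and 75. At Hsp27, a small heat shock protein gene, it lay at -154 bp with ranks of 173, 214 and 302, and the 3 replicate summits were at -137, -133 and -134 bp. For the proteasome the count was 6 of 12, led by Rpn11, the deubiquitinating subunit of its regulatory particle (-226 bp, signal 193). For the V-ATPase, the proton pump of acidic organelles, it was 5 of 10, led by Vha16-1 (-139 bp, 257).

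Of 19 embryonic patterning genes with a member, 2 had an optimal one. These were bcd, the anterior morphogen (-208 bp, signal 326, ranks 2147, 777 and 564), and wg, a Wnt ligand (-83 bp, 101, ranks 4785, 7386 and 7436). The replicate summits of bcd stood at -208, -208 and -214 bp, and those of wg at -83, 57 and -136 bp, on both sides of the TSS. None of 17 cuticle protein genes had an optimal member, which allows a share of up to 17.6%, and their median position was 117.5 bp. Among ecdysone response genes 3 of 8 had one, at Eip75B (46 bp), Hr39 (21 bp) and EcR (-350 bp), all nuclear receptor genes. The replicate summits fell on both sides of the TSS at Eip75B (46, 32 and -11 bp) and at Hr39 (-19, 118 and 82 bp). Among cell cycle genes it was 7 of 16, led by fzr (-466 bp), polo (-110 bp) and CycB (-78 bp). The polo summit lay in the 5′ UTR between annotated TSSs of its gene. Among promoter and insulator factor genes it was 3 of 8, at Trl (115 bp), CTCF (78 bp) and pita (68 bp), all downstream in the pooled list. The replicate summits of CTCF stood at 38, -19 and 89 bp, so that of replicate 2 was upstream. The lists are small, and no test was made over them.

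**Figure D4:**
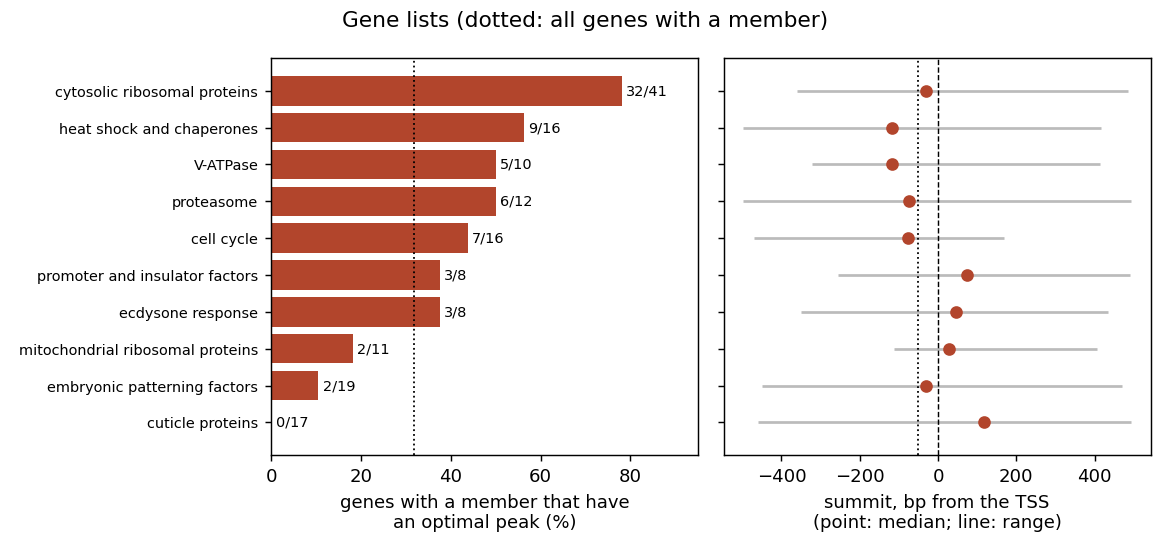
Left, percent of genes with a member that had an optimal peak, with the counts beside each bar; right, median (point) and range (line) of the summit positions of each list's members in bp from the TSS. Cytosolic ribosomal protein genes reach 32 of 41 and cuticle protein genes 0 of 17, against 31.7% of all genes with a member (dotted).

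Base composition moved with strength. Over 100 bp on each side of the summit the optimal members had a mean GC content of 37.4% and the members that overlapped no optimal peak 43.5%. Across all protein-coding promoters, from 200 bp upstream to the TSS, it was 39.8%. The same direction held in each class, for example 37.5% and 41.2% near upstream and 38.5% and 48.1% far downstream. The part of base composition in the differences by position was not tested.

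Known sites were found in a minority of the strong members. The heat shock element, with 1 mismatch allowed among its 9 fixed bases, stood inside the searched window, 100 bp to either side, in 6.41% of the 1889 overlapping members (5.39 to 7.60), in 4.97% of the members that overlapped no optimal peak (4.37 to 5.65), and in 5.34% of 19253 protein-coding promoters. In the replicates it was in 6.59% ± 0.403 of the top-list members and 4.80% ± 0.139 of the other members (SD, n = 3), higher in 3 of 3 replicates. Replicates share most of these regions, so for this and the other sites they are not independent looks at the sequence. All pooled regions gave 5.18%, and regions that overlapped an optimal peak but were no members gave 5.85%. The sets also differ in GC content and position, and the part of these was not tested. With no mismatch the element was in 0.688% of the overlapping members. The DREF site (TATCGATA) was in 6.88% of the overlapping members and 4.65% of those outside, against 6.21% of promoters. Its replicate shares were 6.53% ± 0.536 and 4.33% ± 0.401, higher in 3 of 3. Among the 400 strongest members it was in 3.5%, below the share of the members outside.

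The other sites were searched in the same window on both strands. The M1BP site (GGTCACACT) was in 3.55% of the overlapping members, 3.05% of those outside and 2.48% of promoters, and in 1.75% of the 400 strongest members. The GAGA site (GAGAGAG) was in 5.66%, 5.83% and 6.19% of the same sets, and the E-box (CACGTG) in 2.44%, 2.14% and 2.19%. The initiator letters (TCAGT) were in 33.6%, 34.0% and 33.4%. The TATA letters (TATAAAA) were in 13.2%, 9.57% and 16.8%, beside the lower GC content of the strong members, and their part was not tested. None of these letter strings contains another.

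Counted from the TSS on the strand of the gene, the core promoter elements differed by where the summit lay. TATAAA starting between -40 and -20 bp was present at 0.951% (0.437 to 2.06) of the 631 TSSs with a near upstream optimal member and at 5.26% (3.56 to 7.71) of the 456 with a far upstream one, against 6.87% of all 19253 protein-coding TSSs. TCAGT starting within 10 bp of the TSS was present at 4.20% (2.42 to 7.19) of the 286 TSSs with a core optimal member and at 26.3% (22.5 to 30.5) of those with a far upstream one, against 14.1% of all. Each TSS was counted once, with its strongest member.

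One hexamer, found by looking at the sequences around the strong summits and so chosen after its counts were seen, was found more often in one orientation. CACTGT pointing away from the summit, at least 51 bp and up to 5 bins of 25 bp from it on either side, occurred in 189 of the 1598 optimal members, 11.8% (10.3 to 13.5). Pointing toward the summit in the same zone it occurred in 64, 4.01% (3.15 to 5.08). In the 4429 members that overlapped no optimal peak the shares were 4.65% outward and 4.04% inward. In the replicates, 10.8% ± 0.996 of the top-list members held it outward and 4.01% ± 0.234 inward (SD, n = 3), while the other members gave 4.23% ± 0.412 and 3.82% ± 0.180. Replicates share most of these regions, so they are not independent looks at the sequence.

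**Figure D5:**
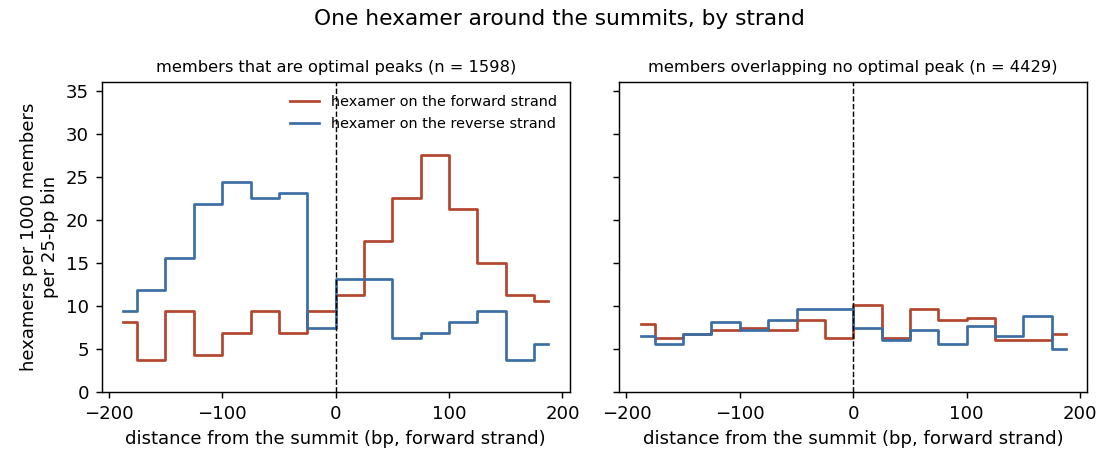
Occurrences of CACTGT on the forward strand (red) and on the reverse strand (blue) per 1000 members in 25-bp bins of distance from the summit, for optimal members (left) and members that overlap no optimal peak (right). In optimal members the forward copies gather to the right of the summit and the reverse copies to its left. In the other members the same pattern is weak, with 220 outward and 186 inward copies between 51 and 125 bp from the summit.

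The hexamer stood outward on both sides of the summit in 31 optimal members, as in the stretches printed above for larp, Rtnl1, CG1635 and PAN3. Outward copies were on the side of the gene in 116 optimal members, 7.26% (6.09 to 8.64), and on the far side in 104, 6.51% (5.40 to 7.82), with overlapping intervals. The 4158 optimal peaks that were no members gave 12.3% outward and 5.32% inward. Optimal members also held GAGAGA at 682 copies per Mb within 50 bp of the summit and 1577 per Mb between 100 and 200 bp away, against 1024 and 1277 per Mb in the members that overlapped no optimal peak. Optimal peaks that were no members gave 407 and 1058 per Mb. Overlapping copies were each counted, so GA repeats weigh more. ATCGAT, which is part of the DREF site TATCGATA, stood at 1413 and 616 per Mb in optimal members, and 1053 and 492 in members that overlapped no optimal peak. The 400 strongest members gave 718 and 337.5 per Mb, and optimal peaks that were no members 724 and 535 per Mb. Within 50 bp of the summit both were thus below the members that overlapped no optimal peak. GAGAGA and ATCGAT were also chosen after seeing the data. No cause of these patterns was tested.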

How the data were processed

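ChIP-seq region lists of 3 biological replicates of Hsf-GFP embryos and of their pool were used in dm6. The authors deposited them in narrowPeak layout; the signal is the authors' score against a control, on its own scale in each list. Per the file headers and labels no unit or caller is named; which aligner and caller were used is not given in the sources used here. The deposited −log10 q value reached its ceiling of 4.12 in strong regions and was not used. No file gives read counts, so depth is unknown.

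TSSs came from Ensembl release 115 gene models (dm6, 6 arms). Transposable element insertions, which that annotation lists as genes, were not counted as other genes; an alternative counts them. RefSeq's release 6 FASTA gave sequences. The example sequence for the E-box is not reported here. Computed here (Python 3.11.15, pandas 2.3.3, SciPy 1.17.1, numpy 2.4.6): the member rule, tested on simulated regions; ranks within lists; shares with Wilson 95% intervals; and exact sign-flip permutation tests over 3 replicates. Replicate values rest on each list's 5756 strongest regions. Members, gene lists and tests were chosen with earlier results of these data known. Named genes were the 10 strongest members, the 4 strongest per position class, the 3 strongest per gene list, those beside the optimal threshold, and the 3 genes with most members; from the longer lists some are named by count only. Alternatives covered the TSS window, the TSS used, the threshold, the optimal definition, motif settings and leaving out replicates.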

Additional observations from a re-analysis of the deposited data

How the results depend on the processing

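No paired analysis was possible because there is 1 group and no second group to pair with. The share of members overlapping an optimal peak (29.9%) was 35.9% with a 250 bp TSS window, 25.9% with 1000 bp, 15.9% above the median signal of the optimal list, 25.3% by the region's own entry, and 22.3% to 23.1% leaving out a replicate, where both remaining top lists must match. The pooled and optimal lists were not rebuilt without the replicate. For values from those lists, leaving out a replicate only added a filter, so this share could only fall. The median position of members was -82 to -64 bp leaving out a replicate. That of overlapping members (-119 bp) was -73 bp at 250 bp, -136 bp at 1000 bp, -101 bp from the 5′-most TSS, -149 bp under the stricter threshold, and -132 to -124 bp leaving out a replicate. The core minus flank density, with both flanks merged, was 0.0944 to 0.110 per kb leaving out a replicate. The differences in top-list share kept their direction under all 10 alternatives each: 5.89 to 17.3 points for members minus other regions, 15.4 to 28.7 for upstream minus downstream, and -24.9 to -15.3 for single-gene minus multi-gene regions. Transposable elements counted as genes, an alternative chosen after seeing the data, moved none of these results beyond the spread of the replicates.

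Motif shares scale with the window by construction. With 50 bp and 250 bp on each side they were 2.70% and 13.7% (heat shock element), 3.81% and 10.7% (DREF), 1.91% and 6.35% (M1BP), 6.67% and 29.3% (TATA), 17.9% and 62.3% (initiator), 2.28% and 16.8% (GAGA), and 1.11% and 6.51% (E-box). The heat shock element gave 0.688% with no mismatch and the M1BP site 9.63% with 1 mismatch. Leaving out a replicate, by the same added filter on the optimal list, gave 6.20% to 6.59% (heat shock element), 6.02% to 6.52% (DREF), 2.69% to 3.36% (M1BP), 13.8% to 14.1% (TATA), 33.5% to 34.8% (initiator), 5.22% to 6.04% (GAGA) and 2.55% to 2.75% (E-box). Depth is unknown, so weak members cannot be told from unbound sequence.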
